A study of Mesocricetus auratus with 24 samples.

Results

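The response to sound in the inferior colliculus (IC) of control Syrian hamsters was read from 12 of the 24 arrays of the series, 6 from stimulated and 6 from naïve animals, chosen by the strain and the exposure that their labels give. The study used the GASH/Sal hamster, a strain that convulses when it hears loud sound, and its remaining 12 arrays came from that line, 6 naïve and 6 stimulated. Every animal was aged 16 weeks and weighed about 60 g. The stimulated Syrian animals were control hamsters exposed to auditory stimulation, and their IC was collected 60 min later. The naïve Syrian animals were control hamsters with no exposure. The 60 min are counted from the seizures in the submitters' words, and which event was timed in the Syrian animals was not given in the labels. No allele, transgene or drug is named for either group. Hamster RNA was hybridised to a mouse whole-transcript array, so each gene was tested between arrays and not against another gene. Mean signal over genes did enter the naming rule and the list means, and marked genes of low signal. In the labels the animals are named in 2 styles, called series A (replicates 1 to 3) and series B (replicates 4 to 6) here, with 3 arrays of each group in each series.

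The IC is the midbrain station through which nearly all ascending auditory signals pass, and it combines excitatory glutamatergic input with GABAergic and glycinergic inhibition. Neurons that fire strongly transcribe immediate-early genes within minutes. Many of these encode transcription factors such as Fos and the Egr and Nr4a families, which then act on later genes for synaptic proteins, signalling enzymes and trophic factors. Sound is also a stressor, and adrenal glucocorticoids raise another set of transcripts in brain, among them Sgk1, Klf9 and Per1.

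Across 19938 genes the differences were small. The median log2 difference, stimulated minus naïve, was 0.02, 95% of genes lay between -0.19 and 0.23, and only 5 genes reached 0.5 in size in either direction. These were Olfr59 (0.61), Mir384 (0.58), Rpl34 (-0.53), Mir692-1 (-0.55) and Usp17ld (-0.97), of which Mir384 and Mir692-1 are named after their values were seen. By limma, with Benjamini-Hochberg adjustment over all genes, 0 genes (0%) passed an adjusted p of 0.05, and the lowest adjusted p was 0.570. At an unadjusted p under 0.05, 867 genes (4.35%) were higher and 456 (2.29%) were lower in stimulated animals. With quantile normalization of the arrays that split was 730 higher and 633 lower. In bulk tissue, fewer cells of a type and less RNA per cell cannot be told apart. No gene below passed the test over all genes, so each is given by its values, its log2 difference with the standard error (SE), and its adjusted p.

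The 12 arrays correlated with each other across genes at 0.966 to 0.993, and their medians lay between 4.541 and 4.653 (log2 signal). Stimulated replicate 4 stood apart. Its median of 4.653 was the highest, against at most 4.591 in the other Syrian arrays, and its genes deviated from the mean of their group and series with an SD of 0.219, against 0.109 to 0.156. It held the highest of the 6 stimulated values for 38.9% of all genes. Values without it are given beside many of the results below that moved when it was left out.

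Neuronal activity genes were led by Fos, the subunit of the AP-1 transcription factor that is the most used marker of recently active neurons. Fos signal ran from 5.90 to 6.29 in naïve animals with a median of 5.99, and from 6.25 to 7.001 in stimulated animals with a median of 6.48. All 6 stimulated arrays lay above the naïve mean, and the groups overlapped only through naïve replicate 1 (6.29) and stimulated replicate 3 (6.25). The log2 difference was 0.48 (SE 0.119, limma adjusted p = 0.570), which is 1.39-fold. It was 0.48 in series A and 0.48 in series B, each 3 arrays against 3. In an exact two-sided permutation test with labels exchanged within each series, 4 of 400 arrangements gave a difference as large (p = 0.01, with 0.005 the smallest p possible). Fos was taken up with earlier results of these arrays known and is among the top genes of this contrast, so this p is a description of its separation and not independent support. Without stimulated replicate 2, the highest array, the difference was 0.39.

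The orphan nuclear receptors of the Nr4a family are transcribed soon after calcium entry. Nr4a1, which followed Fos in size among the immediate-early factors, ran from 5.22 to 5.55 in naïve animals (median 5.36) and from 5.27 to 6.23 in stimulated animals (median 5.71). Of the stimulated arrays, 5 lay above every naïve array, and stimulated replicate 4 lay inside the naïve range. The log2 difference was 0.36 (SE 0.128, limma adjusted p = 0.719), or 0.45 without replicate 4. Nr4a3 ran from 4.70 to 4.88 in naïve animals (median 4.76) and from 4.78 to 5.23 in stimulated animals (median 4.999). Here too 5 stimulated arrays were above every naïve array, and replicate 5 was inside the naïve range. Its log2 difference was 0.24 (SE 0.0837, limma adjusted p = 0.719), with 0.23 in series A against 0.24 in B, or 0.12 in B without stimulated replicate 4. Nr4a2, the third member of the family, showed no such separation, with a log2 difference of -0.02 and a 95% interval from -0.19 to 0.15.

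Among other activity factors, the differences of Egr2, Npas4 and Fosb rested largely on 1 animal. Egr2 ran from 5.15 to 5.35 in naïve animals (median 5.23) and from 5.11 to 6.42 in stimulated animals (median 5.36). Npas4, a factor induced by calcium entry that shapes inhibitory synapses, ran from 4.89 to 5.53 in naïve animals (median 5.23) and from 5.17 to 6.33 in stimulated animals (median 5.40). In both genes stimulated replicate 2 held the top value, and the other 5 stimulated arrays lay within or close to the naïve range. The log2 difference of Egr2 was 0.24 (SE 0.184, limma adjusted p = 0.832), and 0.04 without replicate 2. That of Npas4 was 0.27 (SE 0.175, limma adjusted p = 0.806), and 0.11 without replicate 2. Fosb, a partner of Jun proteins like Fos, was at 6.08 in replicate 2 and at 4.97 to 5.38 in the other stimulated arrays, with a log2 difference of 0.07 that became -0.09 without it. Egr3 had a log2 difference of 0.01 (95% interval -0.25 to 0.27), Egr1 0.07 (-0.21 to 0.34, with a difference of -0.03 without stimulated replicate 4) and Arc, a synaptic effector, 0.01 (-0.17 to 0.18). These intervals leave room for changes in either direction. Egr4 was at -0.06 (-0.30 to 0.17), with 0.15 in series A but -0.28 in series B, in which stimulated replicate 4 was lowest at 5.26, and at 0.06 over both series without that array.

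**Figure D1:**
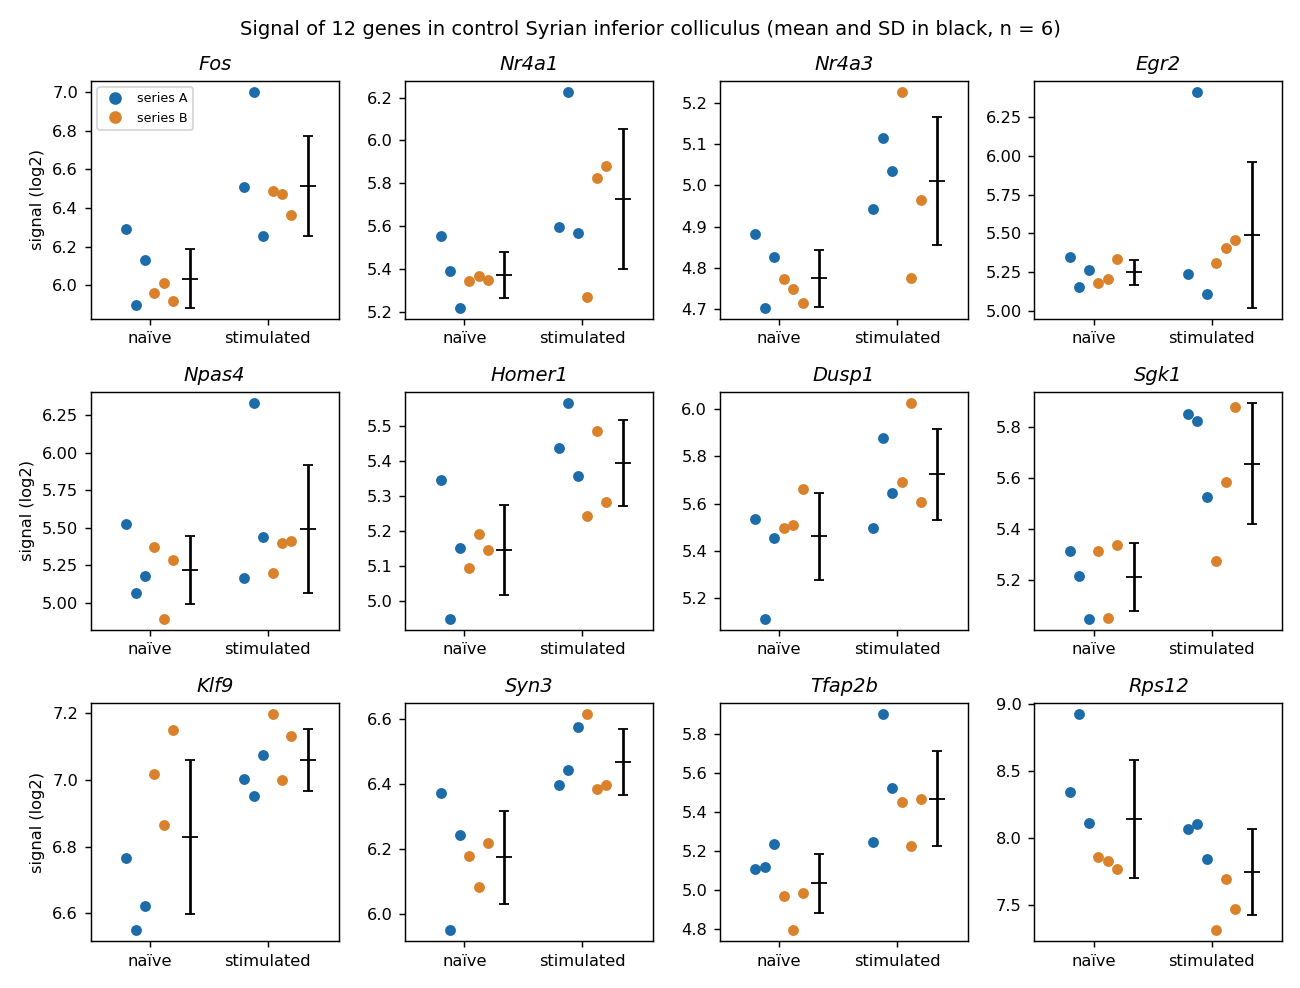
Log2 signal (y axis, scaled separately per gene) of 12 genes in each naïve and stimulated Syrian array, with series A in blue, series B in orange, and the mean with SD (n = 6) in black. Fos, Nr4a3, Homer1 and Sgk1 were higher in most stimulated arrays, whereas Egr2 and Npas4 stood out in stimulated replicate 2 alone, at 6.42 and 6.33.

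The list of immediate-early transcription factors held 30 genes, all measured. Their log2 differences ran from -0.20 to 0.48, and 23 of 30 (76.7%) were above 0, against 57.5% of all genes. The median was 0.07, against 0.02 for all genes, and it was 0.06 in series A and 0.11 in series B. It was 0.045 without stimulated replicate 2 and 0.047 without stimulated replicate 4. At an unadjusted p under 0.05, 4 of 30 (13.3%) were higher, namely Fos, Nr4a1, Nr4a3 and the Krüppel-like factor Klf6 (log2 difference 0.25, SE 0.0987), and 0 were lower, against 4.35% and 2.29% of all genes. Jun (0.26, or 0.13 without stimulated replicate 4), Egr2 and Npas4 were of like size but more spread. Over the members, the mean deviation from the naïve mean was 0.286 in stimulated replicate 2, 0.136 in replicate 4 and between -0.00397 and 0.0638 in the other 4 stimulated arrays. Replicate 2 held the highest stimulated value for 14 of the 30 genes (46.7%), whereas over all genes it held the highest value for 9.22%. Replicate 4 held it for 12 of 30 (40%), close to its 38.9% of all genes. In the naïve animals the mean deviations of the list lay between -0.0274 and 0.0309, a narrower range. Over all genes the mean deviation was 0.0881 in stimulated replicate 4 and between -0.0104 and 0.0284 in the other stimulated arrays. In naïve animals it lay between -0.0258 and 0.0187 over all genes. Replicate 4 was thus also raised outside this list.

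Activity-regulated effectors are the proteins made after the first wave of factors, and 27 of the 29 listed were measured. Of these, 20 were above 0 (74.1%), 5 were higher at an unadjusted p under 0.05 (18.5%) and 1 was lower (3.70%), against 57.5%, 4.35% and 2.29% of all genes. The median was 0.10, and 0.07 in series A and 0.04 in B. It rested on single arrays, being 0.05 without stimulated replicate 4 and 0.04 without naïve replicate 6. Homer1, a postsynaptic scaffold with an activity-induced short form, ran from 4.95 to 5.35 in naïve animals (median 5.15) and from 5.24 to 5.57 in stimulated animals (median 5.40). Only naïve replicate 1 reached into the stimulated range. The log2 difference was 0.25 (SE 0.0964, limma adjusted p = 0.719), with 0.31 in series A and 0.19 in B. The array summary does not separate the short and long forms of Homer1.

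Mcl1, an anti-apoptotic relative of Bcl2, ran from 4.38 to 4.92 in naïve animals (median 4.71) and from 4.71 to 5.38 in stimulated animals (median 4.94). Its log2 difference was 0.30 (SE 0.0870, limma adjusted p = 0.640), and all 6 stimulated arrays exceeded the naïve mean, with 0.23 without stimulated replicate 4. The difference was 0.41 in series A and 0.18 in series B, but 0.0069 in B without that array. Gadd45g, a stress and growth-arrest gene that responds to depolarisation, ran from 5.31 to 5.54 in naïve animals (median 5.46) and from 5.50 to 6.02 in stimulated animals (median 5.76), a log2 difference of 0.29 (SE 0.112, limma adjusted p = 0.719). Of the stimulated arrays, 5 were above every naïve array. Plk2 (0.24) and Plk3 (0.19), kinases of the polo family that act in synaptic scaling and stress, completed the higher members. Scg2, a granin that is stored in and released from dense-core vesicles, was the member that was lower, by 0.15 (SE 0.0689), in 6 of 6 arrays relative to the naïve mean, with -0.29 in series A and -0.01 in series B. Rgs2, a brake on G-protein signalling, had a log2 difference of 0.27 (SE 0.162, limma adjusted p = 0.782). It was 0.53 in series A and 0.02 in series B, and 0.18 without stimulated replicate 2. Bdnf, the trophic factor, was at 0.01.

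Among MAP kinase phosphatases and feedback inhibitors, 9 of 15 were above 0 (60%, against 57.5% of all genes) with a median of 0.03, and Dusp1, which switches off p38, JNK and ERK and is also raised by glucocorticoids, was the member at an unadjusted p under 0.05 (6.67% higher, against 4.35%). Dusp1 ran from 5.11 to 5.66 in naïve animals (median 5.50) and from 5.50 to 6.03 in stimulated animals (median 5.67). Its log2 difference was 0.26 (SE 0.0892, limma adjusted p = 0.719), with 0.30 in series A and 0.22 in B, and 0.20 without naïve replicate 2, the lowest naïve array. The list median was -0.0032 without stimulated replicate 4.

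**Figure D2:**
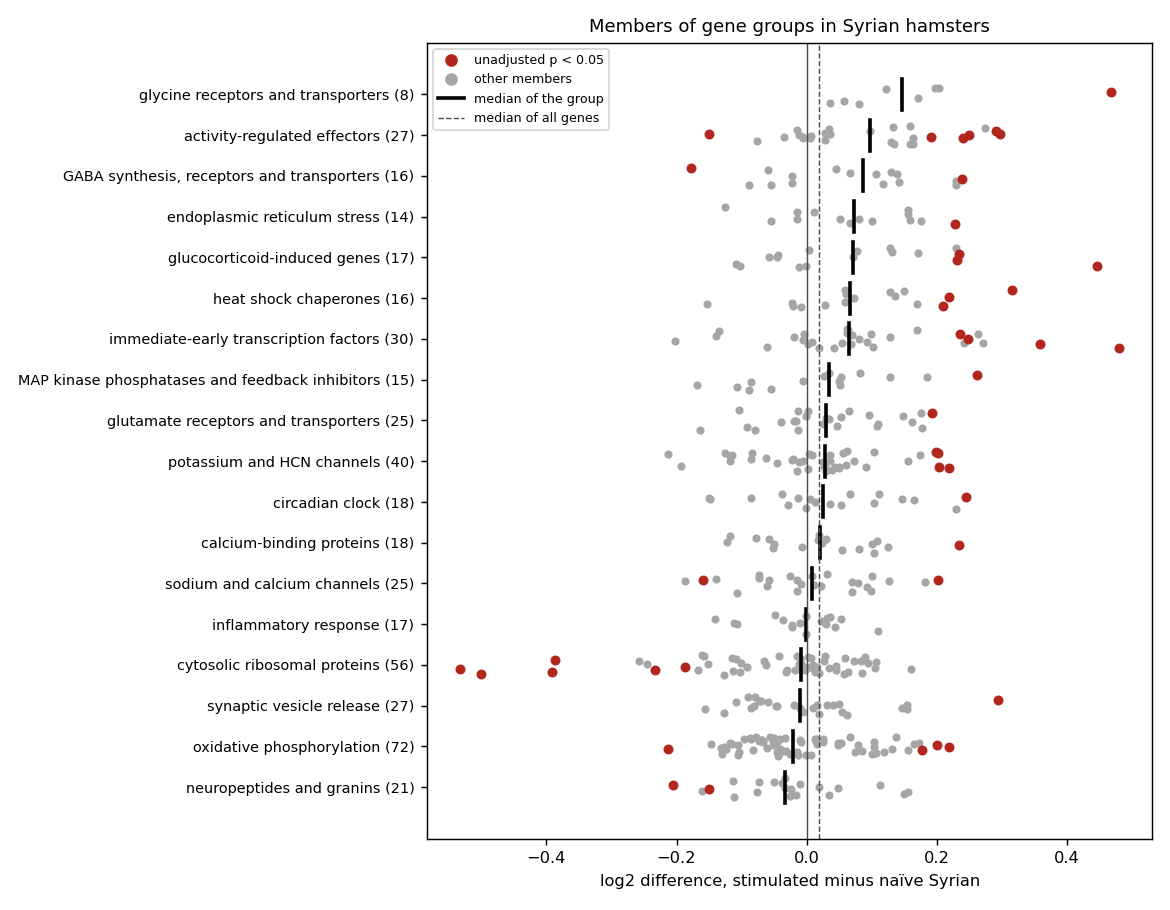
Log2 difference between stimulated and naïve Syrian animals (x axis) for the measured members of 18 gene groups (number of members in brackets). Red points had an unadjusted p under 0.05, black bars are group medians, and the dashed line is the median of all genes (0.02). The group medians lie between -0.03 and 0.15, and single genes such as Fos (0.48), Sgk1 (0.45) and Rpl34 (-0.53) lie far from their groups.

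Among glucocorticoid-induced genes, Sgk1, Klf9 and Nfkbia were higher at an unadjusted p under 0.05. Of 17 measured, 10 were above 0 (58.8%, about the 57.5% of all genes), 3 were higher (17.6%, against 4.35%) and 0 were lower (against 2.29%). The median was 0.07, and 0.04 without stimulated replicate 4 and 0.03 without stimulated replicate 6. Sgk1, a kinase that regulates ion channels and transporters, ran from 5.05 to 5.34 in naïve animals (median 5.26) and from 5.27 to 5.88 in stimulated animals (median 5.70). Apart from stimulated replicate 4, which lay inside the naïve range, each stimulated array was above every naïve array. The log2 difference was 0.45 (SE 0.149, limma adjusted p = 0.719), or 0.53 without replicate 4, and it was 0.55 in series A and 0.35 in B.

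Klf9, a factor induced directly by the glucocorticoid receptor, ran from 6.55 to 7.15 in naïve animals (median 6.82) and from 6.95 to 7.20 in stimulated animals (median 7.04). The naïve animals of series B (6.87 to 7.15) were higher than those of series A (6.55 to 6.77). The log2 difference was 0.23 (SE 0.0968, limma adjusted p = 0.726), with 0.36 in series A and 0.10 in B. Nfkbia, which restrains NF-kB and is a classic target of the receptor, had a log2 difference of 0.23 (SE 0.0889, limma adjusted p = 0.719), at 0.27 and 0.20 in series A and B. Per1, a clock gene that both neuronal activity and glucocorticoids raise, had a log2 difference of 0.23 (SE 0.118, limma adjusted p = 0.754), and all 6 stimulated arrays exceeded the naïve mean. The difference was 0.40 in series A and 0.06 in B. Fkbp5, a co-chaperone of the receptor, was at -0.01, with 0.19 in series A and -0.21 in series B. Of the 18 clock genes measured, 11 were above 0 (61.1%) with a median of 0.02, or 0.04 without stimulated replicate 4. The clock median was 0.11 in series A and -0.02 in series B. Nr1d2, a repressor of Bmal1, was the member at an unadjusted p under 0.05 (5.56%, against 4.35%), with a log2 difference of 0.25 (SE 0.0949). It was 0.18 without stimulated replicate 4.

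Heat shock chaperones had unlike values in the 2 series, and so had some other lists. Of 16 measured, 12 were above 0 (75%, against 57.5% of all genes) and 3 were higher at an unadjusted p under 0.05 (18.8%, against 4.35%). The median was 0.07, and 0.10 without stimulated replicate 4. It was 0.18 in series A and -0.01 in series B, a difference that was not tested. Dnajb1, a co-chaperone of Hsp70, ran from 5.24 to 5.76 in naïve animals (median 5.50) and from 5.30 to 6.15 in stimulated animals (median 5.90), a log2 difference of 0.32 (SE 0.143, limma adjusted p = 0.743). The 3 stimulated arrays of series A (5.89 to 6.15) were above every naïve array, and in series B stimulated replicates 4 and 5 were not. Dnajb1 thus differed by 0.53 in series A and 0.11 in series B, or 0.24 in B without stimulated replicate 4 (0.41 over both). Hsph1, a nucleotide exchange factor for Hsp70, was at 0.35 and 0.09, and Chordc1, a co-chaperone of Hsp90, at 0.46 and -0.04. Hspa1a, the inducible Hsp70, had a log2 difference of -0.02. Of 14 genes of endoplasmic reticulum stress, 10 were above 0 (71.4%) with a median of 0.07, which was 0.14 in series A and 0.0027 in B. Sdf2l1, a component of the folding machinery there, was the member at an unadjusted p under 0.05 (7.14% higher, against 4.35% of all genes). It was at 0.23 (SE 0.0861, limma adjusted p = 0.719). Of 17 inflammatory genes 7 were above 0 (41.2%), with a median of -0.0017 that was -0.043 without stimulated replicate 4, and 0 were at an unadjusted p under 0.05 in either direction.

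The genes of the top ranks belonged to other functions. By the naming rule these were the 10 of lowest p in each direction among genes with a mean signal at or above the median. Ahead of Fos stood Rbm4b, an RNA-binding regulator of splicing. It ran from 5.98 to 6.12 in naïve animals (median 6.05) and from 6.18 to 6.73 in stimulated animals (median 6.36), with no overlap. This was a log2 difference of 0.34 (SE 0.0802, limma adjusted p = 0.570), and 0.26 without stimulated replicate 4. Groups without overlap were found for 39 genes that were higher (0.196%) and 19 that were lower (0.0953%) of the 19938.

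Syn3, a synapsin on synaptic vesicles, ran from 5.95 to 6.37 in naïve animals (median 6.20) and from 6.38 to 6.61 in stimulated animals (median 6.42). The groups narrowly did not overlap, and the log2 difference was 0.29 (SE 0.0749, limma adjusted p = 0.577), with 0.28 in series A and 0.30 in B. Cd200, a neuronal surface protein that restrains microglia, ran from 4.97 to 5.20 in naïve animals (median 5.12) and from 5.25 to 5.49 in stimulated animals (median 5.38), again with no overlap. Its log2 difference was 0.27 (SE 0.0686, limma adjusted p = 0.577). Lamp5, a membrane protein of a subset of GABAergic neurons, ran from 4.93 to 5.37 in naïve animals (median 5.15) and from 5.12 to 5.77 in stimulated animals (median 5.56). Stimulated replicate 4 was the array inside the naïve range, and the log2 difference of 0.38 (SE 0.106, limma adjusted p = 0.637) was 0.47 without it.

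Tfap2b, a transcription factor of the developing and adult midbrain, ran from 4.79 to 5.23 in naïve animals (median 5.04) and from 5.22 to 5.90 in stimulated animals (median 5.46). This was a log2 difference of 0.43 (SE 0.122, limma adjusted p = 0.637), with 0.40 in series A and 0.46 in B, and 0.35 without stimulated replicate 2. Spty2d1, a histone chaperone (0.38, without overlap), Zmynd10, which helps assemble dynein arms of cilia (0.38, and 0.30 without stimulated replicate 4), Rnf113a1, a RING-finger protein of the spliceosome (0.28), and Ccdc28b (0.24) completed the 10. Among genes of any signal, Tiprl, a regulator of PP2A-type phosphatases, was higher by 0.33 (SE 0.0719, limma adjusted p = 0.570) without overlap.

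The gene with the lowest p of all was lower in stimulated animals. Miip, an inhibitor of cell migration, ran from 5.35 to 5.70 in naïve animals (median 5.56) and from 5.0 to 5.31 in stimulated animals (median 5.14). The groups did not overlap, and the log2 difference was -0.40 (SE 0.0822, limma adjusted p = 0.570), with -0.30 in series A and -0.51 in B. Slc25a44, a mitochondrial carrier of branched-chain amino acids, was lower by 0.40 (SE 0.0997), and by 0.34 without stimulated replicate 4. Kctd8, an auxiliary subunit of GABA-B receptors, was lower by 0.25 (SE 0.0731), in 6 of 6 arrays relative to the naïve mean. Nsmce1, a subunit of the SMC5/6 DNA repair complex, was lower by 0.25 without overlap, and by 0.19 without stimulated replicate 4, its lowest array. Cdcp2 (-0.36), C77080 (-0.29) and Egfl8 (-0.28) were also among the 10. Mitochondrial ribosomal proteins entered with Mrps10 (-0.32, or -0.25 without stimulated replicate 4) and, at lower signal, Mrps11 (-0.37, or -0.28), which did not overlap. Gsdmcl-ps, a pseudogene of the gasdermin C family, was the other gene of low signal in the top ranks (-0.40).

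**Figure D3:**
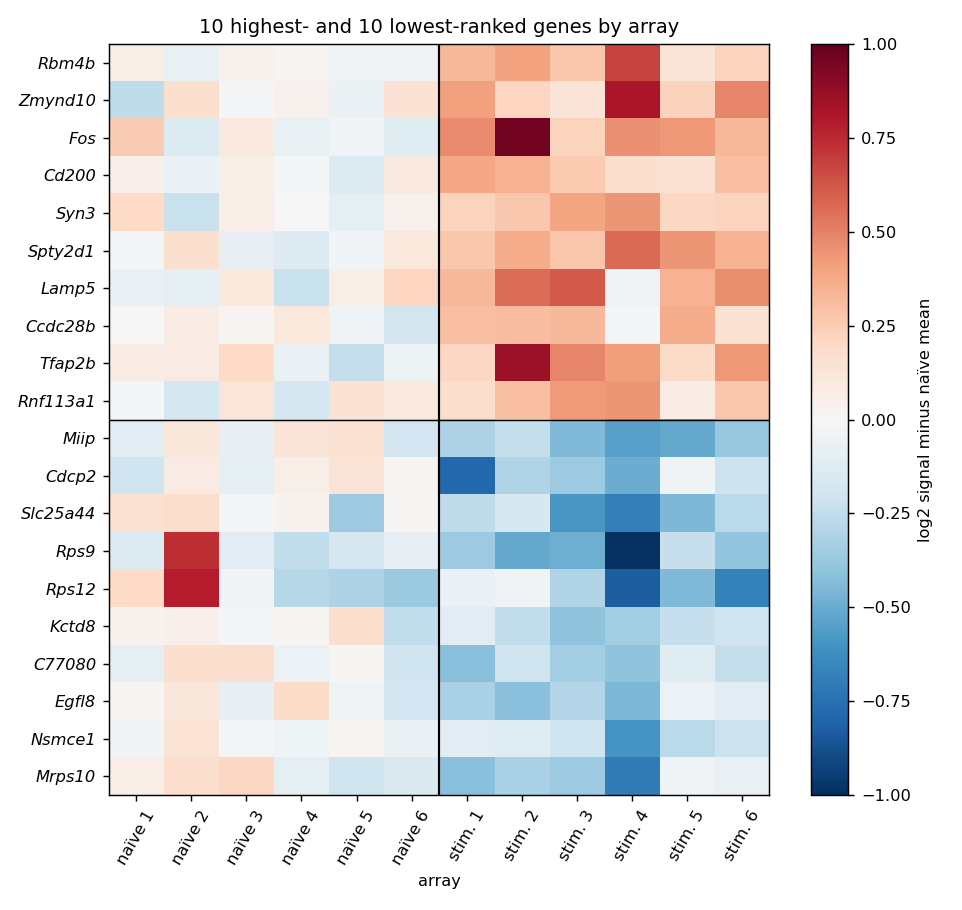
Log2 signal of each Syrian array minus the naïve mean (colour, red higher and blue lower) for the 10 genes of lowest p in each direction among those with a mean signal at or above the median. The 6 stimulated arrays are mostly of one colour within a gene, and the strongest colours include Rps9 in stimulated replicate 4 (5.98, against a naïve mean of 6.98) and Fos in stimulated replicate 2 (7.001, against 6.03). The genes were selected for this contrast, so the colours describe the selection.

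Cytosolic ribosomal proteins supplied a pair of the 10 lower genes. Rps9, a protein of the small subunit, ran from 6.73 to 7.72 in naïve animals (median 6.86) and from 5.98 to 6.75 in stimulated animals (median 6.53). Naïve replicate 2 was far above and stimulated replicate 4 far below the rest. This was a log2 difference of -0.50 (SE 0.131, limma adjusted p = 0.600), or -0.36 without naïve replicate 2. Rps12 ran from 7.77 to 8.92 in naïve animals (median 7.98) and from 7.31 to 8.10 in stimulated animals (median 7.77), and it overlapped over all arrays because series A was higher than series B in both conditions. Within series A the stimulated arrays (7.84 to 8.10) were below the naïve arrays (8.11 to 8.92), and within series B they were too (7.31 to 7.70 against 7.77 to 7.85). This was a log2 difference of -0.39 (SE 0.111, limma adjusted p = 0.637).

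Rpl34, of the large subunit, was at 4.56 in stimulated replicate 4, against 5.87 to 6.64 in the other stimulated arrays and 5.76 to 6.96 in naïve animals. Its log2 difference was -0.53 (SE 0.200, limma adjusted p = 0.719) and -0.29 without that array. Over the whole list the median lay near 0. Of 56 measured, 24 were above 0 (42.9%, against 57.5% of all genes), 0 were higher (against 4.35%) and 6 were lower at an unadjusted p under 0.05 (10.7%, against 2.29%), with a median of -0.01. Rplp2 (-0.39), Rps21 (-0.23) and Rpl24 (-0.19) were the other lower members. The members' mean deviation from the naïve mean was above 0 in all 6 arrays of series A (0.0353 to 0.192) and below 0 in all 6 of series B (-0.237 to -0.0821), naïve and stimulated alike. Of the 80 listed, 24 had no row with 1 gene symbol, and ribosomal proteins have many near-identical processed copies, so their probe sets may read more than 1 locus. Of 72 genes of oxidative phosphorylation, 30 were above 0 (41.7%) with a median of -0.02, or -0.03 without stimulated replicate 4. At an unadjusted p under 0.05, 3 were higher (4.17%, near the 4.35% of all genes) and 1 was lower (1.39%). The lower one, Cox6c, did not overlap (-0.21, SE 0.0660), and the higher ones were Ndufs6 (0.22), Ndufa5 (0.20, or 0.09 without stimulated replicate 4) and Ndufa3 (0.18, or 0.11).

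Genes of inhibitory transmission were listed by transmitter, and no test compared the lists. All 8 glycine receptor, anchoring and transporter genes were above 0 (100%, against 57.5% of all genes), with a median of 0.15. It was 0.21 in series A and 0.08 in B, and the median was 0.08 without naïve replicate 2. The naïve means of the list ran from 5.38 to 5.74 and the stimulated means from 5.67 to 5.94, with naïve replicate 2 as the lowest array. Glra3, the alpha 3 receptor subunit, was the member at an unadjusted p under 0.05 (12.5% higher, against 4.35%). It ran from 4.13 to 5.20 in naïve animals (median 4.62) and from 4.12 to 5.85 in stimulated animals (median 5.38). The stimulated arrays of series A (5.78 to 5.85) were above every naïve array, whereas those of series B (4.12 to 4.98) lay at or within its limits, so that the log2 difference of 0.47 (SE 0.220, limma adjusted p = 0.744) was 0.85 in series A and 0.08 in series B. Glra1, the main adult alpha subunit, was at 0.04 and Slc6a5, the neuronal glycine transporter, at 0.08. Of 16 GABA genes, 10 were above 0 (62.5%) with a median of 0.09, or 0.06 without naïve replicate 2, and 1 was higher and 1 lower (6.25% each, against 4.35% and 2.29%). Gabra2, a GABA-A receptor subunit, was higher by 0.24 (SE 0.104), with 0.42 in series A and 0.06 in B. Gad1, the main GABA-synthesising enzyme, was lower by 0.18 (SE 0.0803), at -0.15 and -0.21.

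Excitatory and channel genes gave few differences. Of 25 glutamate genes, 15 were above 0 (60%, against 57.5% of all genes) with a median of 0.03, which was 0.01 without naïve replicate 2 and 0.05 without stimulated replicate 4. Gria1, an AMPA receptor subunit, was the member at an unadjusted p under 0.05 (4% higher, near the 4.35% of all genes). It was higher by 0.19 (SE 0.0873), with 0.19 in series A and 0.20 in B. Of 40 potassium and HCN channel genes, 25 were above 0 (62.5%) with a median of 0.03, or 0.01 without stimulated replicate 4, and 4 were higher at an unadjusted p under 0.05 (10%), against 4.35% of all genes. These were Kcna4 (0.22), Kcna3 (0.20), Kcnk1 (0.20) and Kcnn3 (0.20), a pair of Shaker channels, a leak channel and a calcium-activated channel. Each of Kcna3, Kcnk1 and Kcnn3 had all 6 stimulated arrays above the naïve mean. Of 25 sodium and calcium channel genes, 13 were above 0 (52%) with a median of 0.01. At an unadjusted p under 0.05, 1 was higher and 1 lower (4% each, against 4.35% and 2.29% of all genes). Scn3b, an auxiliary sodium channel subunit, did not overlap (0.20, SE 0.0886), and Cacna1h, a T-type calcium channel, was lower by 0.16 (SE 0.0757).

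Of 18 calcium-binding proteins, 11 were above 0 (61.1%, against 57.5% of all genes). Their median was 0.02, or -0.0058 without naïve replicate 6. Calb2 (calretinin) was the member at an unadjusted p under 0.05 (5.56% higher, near the 4.35% of all genes). It was higher by 0.23 (SE 0.103), with 0.35 in series A and 0.12 in B. Of 27 genes of vesicle release, 12 were above 0 (44.4%), and Syn3 was the member at an unadjusted p under 0.05 (3.70% higher, against 4.35% of all genes). Of 21 neuropeptides and granins, 6 were above 0 (28.6%, against 57.5% of all genes), with a median of -0.03. The 2 that were lower at an unadjusted p under 0.05 (9.52%, against 2.29%) were Scg2 and Cck, the cholecystokinin precursor. Cck was lower by 0.21 (SE 0.0861), with -0.36 in series A and -0.05 in B, and by 0.14 without stimulated replicate 3. Npy was at -0.03 (95% interval -0.20 to 0.15), or -0.08 without stimulated replicate 4. The transthyretin gene Ttr was at -0.09 (-0.28 to 0.09). Its signal was low, with means of 3.66 in naïve and 3.56 in stimulated animals, at percentile 19.3 of all genes. The drug transporter gene Abcb1a was at 0.15 (-0.07 to 0.38, with a difference of 0.09 without stimulated replicate 4) and Actb, a common reference gene, at -0.02 (-0.17 to 0.12).

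Markers of the cell types that a dissected IC can hold were followed for the same arrays, and their counts stand against 57.5% of all genes above 0, 4.35% higher and 2.29% lower at an unadjusted p under 0.05. Neuron markers had 7 of 12 above 0 with 0 at an unadjusted p under 0.05, and their summed level, as the mean signal per array, was 8.00 to 8.18 in naïve and 8.03 to 8.12 in stimulated animals. Midbrain and collicular markers had 9 of 13 above 0 (69.2%) with a median of 0.09, or 0.06 without stimulated replicate 4, with Tfap2b and Otx2 (0.20) higher and Tcf7l2, a thalamic and midbrain factor, lower (-0.28, or -0.12 without naïve replicate 2), and means of 5.91 to 6.10 and 5.96 to 6.24. Oligodendrocyte markers had 10 of 11 above 0 (90.9%, against 57.5%) with a median of 0.05 and 2 higher (18.2%, against 4.35%), Opalin (0.25) and Cldn11 (0.18), both of myelin, and means of 5.36 to 5.62 and 5.52 to 5.70. Astrocyte markers had 10 of 12 above 0 with Sox9 higher (0.20, or 0.13 without stimulated replicate 4), and means of 6.53 to 6.78 and 6.59 to 6.81. The astrocyte median of 0.03 was 0.12 in series A and -0.05 in series B. Microglia markers had 6 of 11 above 0, with the complement gene C1qc higher (0.25, or 0.15 without stimulated replicate 4). The means of these lists overlapped between the groups, and their part in any result above was not tested.

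Neighbouring tissue was read in the same way. Cerebellum markers had 8 of 13 above 0 (61.5%) with a median of 0.02, or -0.00045 without stimulated replicate 4, and En2 (0.21, SE 0.0824), which is also a gene of the midbrain, and Car8, a Purkinje cell gene (0.26, SE 0.120, or 0.18 without stimulated replicate 4), were higher (15.4%, against 4.35% of all genes). Their means were 5.27 to 5.58 in naïve and 5.38 to 5.65 in stimulated animals. Meninges markers had 3 of 10 above 0 (30%) with a median of -0.04, or -0.09 without stimulated replicate 4, with Ptgds, the prostaglandin D synthase of the leptomeninges, lower (-0.29, SE 0.115; 10%, against 2.29% of all genes), and means of 5.16 to 5.57 and 5.16 to 5.40. Choroid plexus and ependyma markers had 5 of 11 above 0, with 1 higher (9.09%), Otx2, which is on the midbrain list too. Vessel markers had 9 of 12 above 0, with a median of 0.05 that was 0.00053 without stimulated replicate 4, oligodendrocyte precursor markers 3 of 6 with Bcas1 higher (0.19), telencephalon markers 3 of 8 and blood markers 2 of 4, of which none was lower at an unadjusted p under 0.05. Hybridisation of hamster RNA to mouse probes leaves the absolute level of any marker unread.

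Genes of olfactory, vomeronasal and taste receptors, which brain tissue is not known for, were followed for their values in stimulated replicate 4. Of 1224 measured, 780 were above 0 (63.7%), and 87 were higher (7.11%) and 24 lower (1.96%) at an unadjusted p under 0.05, against 57.5%, 4.35% and 2.29% of all genes. Their median was 0.04, with 0.00 in series A and 0.07 in B, and 0.01 without stimulated replicate 4. That array held the highest stimulated value for 565 of them (46.2%), against 38.9% of all genes. Their mean deviation was 0.191 in it and between -0.0321 and 0.0427 in the other stimulated arrays. Olfr59, an olfactory receptor gene, reached 5.42 in it and 3.59 to 4.34 in the other 5, with a log2 difference of 0.61 and 0.38 without it. It was 1 of 2 genes (0.01%) at 1.5-fold or more with an unadjusted p of at most 0.05. The other was Usp17ld, of a family of near-identical deubiquitinase genes, at -0.97 and -0.37 without naïve replicate 2 (9.38, against 5.40 to 5.83 in the other naïve arrays). None of the 1224 had a hamster gene of the same symbol in the RefSeq annotation. The receptors were gathered by mouse family names, and hamster genes with only a placeholder (LOC) name were left out of the match. This absence therefore does not tell whether the hamster has such genes.

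The 2 label series gave separate readings of the same contrast, with no array in common. Over all genes the log2 differences of series A and series B had a Pearson r of -0.0954 and a Spearman correlation of -0.0948, given as a description since genes are not independent. Without stimulated replicate 4 the Pearson r was -0.0139. Of the 1761 genes higher at an unadjusted p under 0.05 in series A alone, 47.8% were above 0 in series B, against 59.2% of all genes. Of the 1310 lower in series A, 38.7% were below 0 in series B, against 40.9%. Across all genes 27.7% were above 0 in both series and 19.2% below 0 in both.

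In series A alone 5 genes passed an adjusted p of 0.05 by limma. They are named after their values were seen. Rnd3, a small GTPase, was at 0.78 (SE 0.127, adjusted p = 0.0396) in series A and -0.08 in series B. Pou3f4, a transcription factor needed for the development of the inner ear, was at 0.59 and -0.06, and Golph3l, a Golgi protein, at 0.59 and 0.07. Cyp2c66 (-0.59 and 0.09) and Nmur1, the neuromedin U receptor (-0.57 and 0.15), were lower in series A. None of the 5 kept its size in series B. In series B alone 0 genes passed, with 667 higher and 220 lower at an unadjusted p under 0.05.

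Against this background, Fos (0.48 and 0.48), Tfap2b (0.40 and 0.46), Nr4a1 (0.41 and 0.31), Sgk1 (0.55 and 0.35), Dusp1 (0.30 and 0.22) and Syn3 (0.28 and 0.30) had like values in series A and B. Without stimulated replicate 4, series B gave 0.46 for Fos, 0.43 for Tfap2b, 0.50 for Nr4a1, 0.50 for Sgk1, 0.26 for Dusp1 and 0.23 for Syn3. The like values of Nr4a3 (0.23 and 0.24) and Rpl34 (-0.51 and -0.55) rested on that array, since without it they were 0.12 and -0.07 in series B. All were chosen for, or with knowledge of, their difference over both series, which favours agreement. Rgs2 (0.53 and 0.02), Glra3 (0.85 and 0.08), Chordc1 (0.46 and -0.04), Egr4 (0.15 and -0.28) and Fkbp5 (0.19 and -0.21) did not have like values. Part of the gap of Glra3 and Egr4 rested on stimulated replicate 4. Without it, series B gave 0.29 for Glra3, -0.06 for Egr4, 0.07 for Rgs2, 0.01 for Chordc1 and -0.20 for Fkbp5. No source used here explains the label styles.

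**Figure D4:**
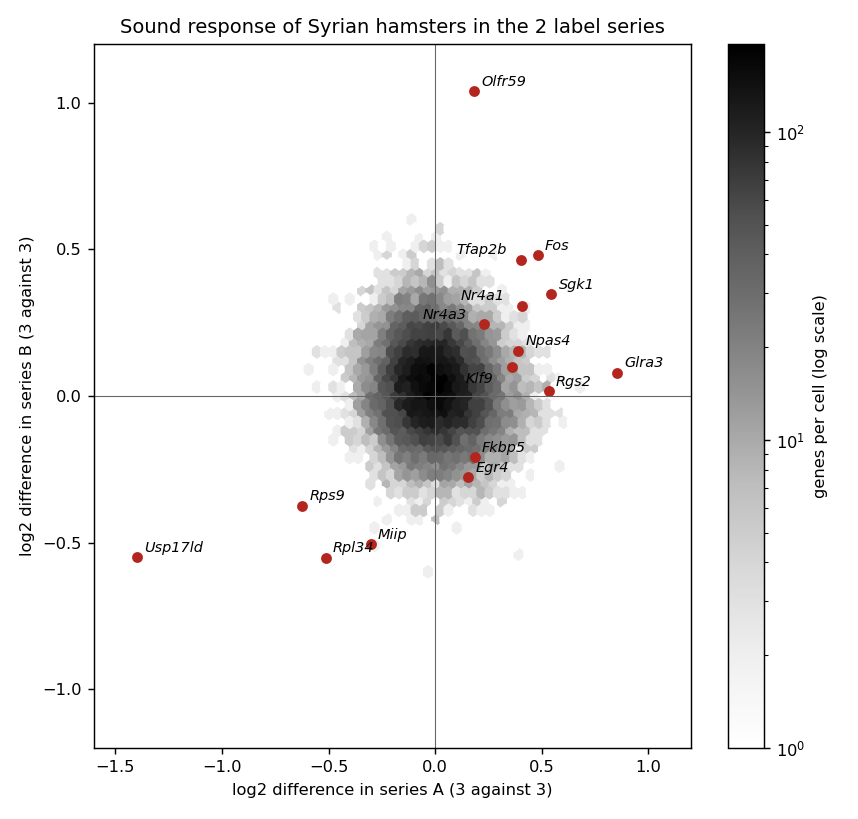
Log2 difference, stimulated minus naïve, in series A (x axis) and in series B (y axis), 3 arrays against 3 in each, with all 19938 genes in grey (log colour scale) and named genes in red. The cloud has no slope (Pearson r -0.0954), and Fos lies at 0.48 on both axes.

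The Syrian response was set beside that of the GASH/Sal line, which was measured on other arrays in the same fit. In that line naïve replicate 6 stood apart about as far as stimulated Syrian replicate 4, with an SD of 0.217 from its group and series (0.107 to 0.154 in the other GASH/Sal arrays) and the lowest median of the 24, 4.501. Over all genes the responses had a Pearson r of 0.192 and a Spearman correlation of 0.164, and without that array 0.0842 and 0.0630. Of the Syrian genes higher at an unadjusted p under 0.05, 66.5% were above 0 in GASH/Sal, against 55.8% of all genes, and of the lower ones 59.0% were below 0, against 44.2%. In GASH/Sal animals 574 genes (2.88%) were higher and 315 (1.58%) lower at an unadjusted p under 0.05. Genes called higher in both strains numbered 69, which is 7.96% of the Syrian and 12.0% of the GASH/Sal calls, and 26 were called lower in both, 5.70% and 8.25%. For the difference between the responses, Syrian minus GASH/Sal, 0 genes passed by limma over all genes, the lowest adjusted p was 0.99995, and 385 (1.93%) were above and 349 (1.75%) below 0 at an unadjusted p under 0.05. Without GASH/Sal naïve replicate 6 those counts were 480 and 478 of the 19938 genes, with 0 genes passing. In that fit 56.65% of all genes were above 0 in GASH/Sal. Of the Syrian higher genes 64.6% were above 0 there, and of the Syrian lower genes 52.3% were below 0.

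Several activity genes had smaller differences in Syrian than in GASH/Sal animals, and no difference between the lines passed. Fos was higher by 0.48 in Syrian and by 0.68 in GASH/Sal animals, a difference of -0.20 (SE 0.168, limma adjusted p = 1). Klf9 stood at 0.23 and 0.47, and Nr4a1 at 0.36 and 0.42. Egr4 stood at -0.06 and 0.40, a difference of -0.47 (SE 0.162, limma adjusted p = 1). Its Syrian value was 0.06 without stimulated Syrian replicate 4, so part of that gap rested on this array. Of the 30 immediate-early factors 23 were above 0 in Syrian and 27 in GASH/Sal animals, against 57.5% and 55.8% of all genes. Their medians were 0.07 and 0.14, and the difference had a median of -0.10. At an unadjusted p under 0.05, 3 of 30 members were below 0, against 1.75% of all genes, and 0 were above, against 1.93%. Without GASH/Sal naïve replicate 6 the GASH/Sal median was 0.19 and the median difference -0.14. In that fit 4 of 30 members were below 0 at that p, against 478 of 19938 genes. The activity-regulated effectors, by contrast, had like medians, 0.097 in Syrian and 0.095 in GASH/Sal animals, with 20 and 23 of 27 above 0. Their difference had a median of -0.06. At an unadjusted p under 0.05, 1 of 27 was above 0 and 1 below, against 1.93% and 1.75% of all genes. The glucocorticoid-induced genes had medians of 0.07 and 0.17. Sgk1 was the reverse, at 0.45 and 0.30, a difference of 0.15 (SE 0.211), or 0.05 without that GASH/Sal array.

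Cytosolic ribosomal proteins were above 0 in 24 of 56 in Syrian and 5 of 56 in GASH/Sal animals, against 57.5% and 55.8% of all genes. Their medians were -0.01 and -0.10. Without GASH/Sal naïve replicate 6, 14 of 56 were above 0 in that line, against 56.65% of all genes, with a median of -0.08. Rps12 itself was alike, at -0.39 and -0.35 (difference -0.04, SE 0.157, or -0.08 without that array). Several top genes of the Syrian contrast were near 0 in the other line, among them Syn3 (0.29 and 0.04), Tfap2b (0.43 and 0.06), Cd200 (0.27 and 0.05) and Miip (-0.40 and -0.07). Others of the top ranks had the same direction in both lines, among them Spty2d1 (0.38 and 0.30), Rbm4b (0.34 and 0.18) and Rps9 (-0.50 and -0.30). Since these were picked as the extremes of the Syrian arrays, their differences between the lines are given with no test. Dusp1 was at 0.26 in Syrian and -0.01 in GASH/Sal animals. En2 was at 0.21 (SE 0.0824) in Syrian and -0.21 (SE 0.0824) in GASH/Sal animals. It was named for its low p in the Syrian arrays, which favours a gap, so that difference is given with no test either.

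**Figure D5:**
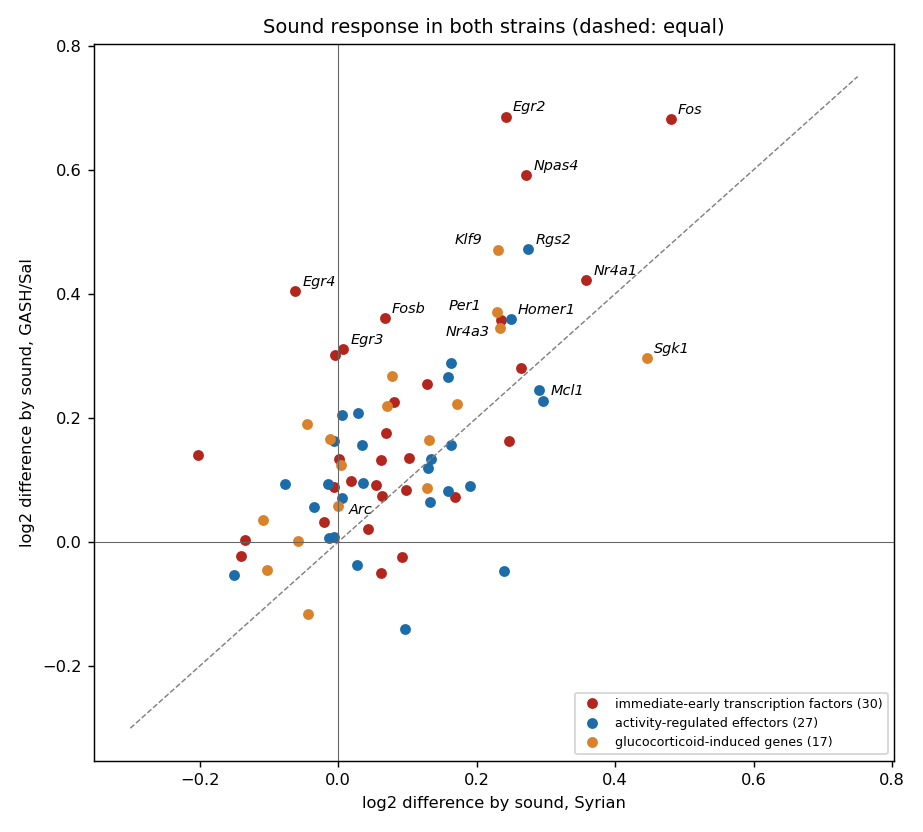
Log2 difference by sound in Syrian (x axis) and in GASH/Sal animals (y axis) for the measured immediate-early factors, activity-regulated effectors and glucocorticoid-induced genes, with named genes labelled and a dashed line of equal response. Fos lies at 0.48 and 0.68, Egr4 at -0.06 (0.06 without stimulated Syrian replicate 4) and 0.40, and Sgk1 at 0.45 and 0.30.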

How the data were processed

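Total RNA of the IC of 24 hamsters, with 6 biological replicates per group by the labels, was hybridised to mouse whole-transcript arrays. The authors deposited log2 probe set signals, and the submitters' processing notes name RMA, which corrects background, normalises between arrays and summarises probes, without a version. Arrays give no read depth, so their number limits the precision. The table held 35556 probe sets, of which 23410 had a listed symbol, 21789 of them 1 and 1621 several. Rows with 1 symbol were used, and the row of highest mean was kept for each of 999 genes with more than 1, which left 19938 genes. No column was left out (0).

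Here, limma 3.58.1 in R 4.3.3 (lmFit and eBayes) was fitted to all 24 arrays with 4 groups and the label series (19 residual degrees of freedom). P-values were two-sided, adjusted by Benjamini-Hochberg over all genes at 0.05, and measure the spread between these animals. Intervals are 95%. The fit was tested on simulated data. The gene lists (21 groups, 13 marker lists), members and rules were chosen with earlier results of these data known. The rule named 22 fixed genes, the 10 of lowest p per direction at or above the median signal, the 3 of lowest p per direction at any signal, up to 3 members per list and direction at an unadjusted p under 0.05, and genes at 1.5-fold or more, 88 in all. Other genes in the text were named after their values were seen. Alternatives were other blocks, each series, the Syrian arrays alone, a signal filter, other row rules, scalings, eBayes settings, array weights, fold rules and leaving out each array. Genes with a same-symbol protein-coding hamster gene (RefSeq, 14106 genes) and leaving out GASH/Sal naïve replicate 6 were added after seeing the data.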

Additional observations from a re-analysis of the deposited data

Results flagged for a closer look

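In each named gene the highest and the lowest of the 6 arrays of each Syrian group were checked for a gap to the next array beyond Dixon's critical share of the group's range. Of 176 groups, 12 had such a gap, and chance alone gives about 1 in 20. Stimulated replicate 2 held the high value of Fos (7.001, next 6.51), Fosb (6.08, next 5.38), Egr2 (6.42, next 5.46) and Npas4 (6.33, next 5.44). Stimulated replicate 4 held a low value of Rps9 (5.98, next 6.46), Nsmce1 (5.56, next 5.88) and Rpl34 (4.56, next 5.87) and a high value of Ndufa5 (6.82, next 6.28). Naïve replicate 2 held a high value of Rps9 (7.72, next 6.89) and Usp17ld (9.38, next 5.83) and a low value of Dusp1 (5.11, next 5.46). Naïve replicate 5 held a low value of Slc25a44 (5.35, next 5.69).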

How the results depend on the processing

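By limma, 0 genes passed over all genes in the Syrian contrast under each alternative run except series A alone, where 5 passed, and under each that includes the GASH/Sal arrays 0 passed in the difference between strains. A rule of 1.5-fold and an unadjusted p up to 0.05 gave 2 genes, and 2-fold gave 0. Series A alone gave 1761 genes higher and 1310 lower at an unadjusted p under 0.05, and 2259 and 1939 without overlap, where 3 arrays meet 3. Series B alone gave 667 higher and 220 lower, and 1285 and 678 without overlap. The signal filter gave 382 higher and 252 lower, with 13 and 8 without overlap, and every probe set gave 1429 and 958, with 69 and 44, on fewer and more rows. Array weights gave 1086 higher and 803 lower. Leaving out each Syrian array gave 60 to 104 genes higher and 25 to 50 lower without overlap, with fewer arrays to overlap. Leaving out GASH/Sal naïve replicate 6, an alternative added after seeing the data, gave 1061 higher and 514 lower, and 39 and 19 without overlap. Without stimulated replicate 4, 785 were higher and 627 lower at an unadjusted p under 0.05, and median centring gave 760 and 542. Genes with a same-symbol hamster gene gave 626 and 304.

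Fos stayed above 0 throughout, from 0.39 to 0.54 with each array left out. The sign of small differences turned for Egr1 (-0.0043), Egr4 (0.15), Nr4a2 (0.066), Fkbp5 (0.19) and Actb (0.085) in series A alone, Fosb (-0.0052), Egr3 (-0.012) and Chordc1 (-0.035) in series B alone, Arc (-0.0010) with median centring, and Egr4 (0.040), Fkbp5 (0.026) and Actb (0.015) with array weights. With each array left out, the range crossed 0 for Fosb (-0.093 to 0.14), Egr1 (-0.032 to 0.14), Egr3 (-0.10 to 0.059), Egr4 (-0.15 to 0.062), Nr4a2 (-0.055 to 0.0049), Arc (-0.041 to 0.042), Fkbp5 (-0.066 to 0.052) and Npy (-0.076 to 0.0064). The cause was not tested.

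A replicate block gave 0 genes passing, 814 higher and 424 lower. Same-numbered arrays of the groups deviated together at r of 0.090, 0.046, 0.016, -0.10, -0.036 and 0.059 for replicates 1 to 6, so the numbers were not taken as pairs.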
